A study of Mus musculus with 6 samples.

Results

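The embryonic globin genes of the mouse are Hbb-y (εy-globin) and Hbb-bh1 (βh1-globin), which encode beta-like chains, and Hba-x (ζ-globin), which encodes an alpha-like chain. Every Affymetrix probe set annotated to 1 of these genes alone was taken, which gave 7 probe sets: 3 for Hbb-y, 3 for Hbb-bh1 and 1 for Hba-x. They stand for 3 of the 18193 genes, and 7 of the 34945 probe sets, that the annotation assigned to a single gene. On GRCm38.p6 in RefSeq, Hbb-y lies on chromosome 7 at 103851754 to 103853207, Hbb-bh1 on chromosome 7 at 103841638 to 103843162 and Hba-x on chromosome 11 at 32276600 to 32278116.

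Haemoglobin is assembled from alpha-like and beta-like globin chains. In the mouse embryo the first red cells, the primitive erythroid cells of the yolk sac, use ζ-globin with εy- and βh1-globin, and the definitive erythroid cells of the fetal liver use mainly the adult alpha- and beta-globins. The change from one set to the other is called haemoglobin switching. EKLF (erythroid Krüppel-like factor, gene Klf1) is a zinc finger protein of the red cell lineage that binds CACCC letters in DNA, and it is known for activating the adult beta-globin gene.

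Of the 6 arrays, 3 held RNA from Eklf -/- embryos (KO) and 3 held RNA from wild-type embryos (WT), each from 1 fetal liver at day 13.5 of gestation. Liver cells were stained with the dead-cell dye 7AAD and with antibodies to CD71 (the transferrin receptor) and Ter119 (a red cell surface marker), and early erythroid progenitors were sorted from them. Both groups carry the strain label C57BL/6, and the label of the KO samples adds that the knockout allele was built from clones of another strain and came through C57BL/6 blastocysts. The allele is a germ line one and is not restricted to a cell type. The comparison addresses how transcripts of early erythroid progenitors differ without EKLF, and 3 arrays per group limit the precision of every value.

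Some facts of the whole series touch the values below. The 1 probe set of Klf1 itself gave signals of 3505, 1391 and 2545 on the KO arrays and 2508, 2706 and 4030 on the WT arrays (log2 difference -0.38 ± 0.32, SE, limma adjusted p = 0.347), so it did not separate the groups. Whether it lies in the deleted part is not given in the sources used here, and KO and WT name the labels. Of 12799 genes tested with limma, 48.7% passed an adjusted p of 0.05 in either direction, 27.9% as higher and 20.8% as lower on KO arrays. Over the array's own controls, the 18 hybridisation control probe sets were 1.74- to 4.63-fold higher on KO arrays (median 2.57), the 27 poly-A control probe sets were 5.64- to 214-fold higher by their means, and the 3 probe sets of 18S ribosomal RNA were 345- to 625-fold higher. On 19 of the 27 poly-A control probe sets every KO array was above every WT array. The folds of the 6 Phe probe sets, the 214-fold among them, rest on KO array 2, at 1294 to 3168, since KO arrays 1 and 3 gave at most 92.0 and the WT arrays at most 76.7. The sorted cells also differed in marker genes: 22 of 22 tested hepatocyte markers were higher on KO arrays (median log2 difference 3.95), and 15 of the 22 after centring on the hybridisation controls, and 9 of 11 tested lymphoid markers were lower and 1 higher. Of 6 tested markers of early erythroid progenitors, Kit fell by 1.73, Cd34 by 2.07, Myb by 2.05 and Gata2 by 0.43 on the log2 scale, while Epor, the erythropoietin receptor, was higher by 1.49 and Tfrc, which encodes CD71, by 0.47. After centring on the hybridisation controls 4 of these 6 were lower and 0 higher, with Tfrc at -0.84. That centring called 253 of the 12799 genes higher and 5416 lower. The Gata2 and Tfrc calls were lost in 9 and 7 of 22 alternatives. No batch or date is given, and the control and marker differences run between the same groups as the genotype. Their part in the globin values cannot be told apart from that of the genotype, and was not tested.

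The stretches just upstream of the embryonic genes and of the adult genes of the same clusters are shown because the factor that is lost binds CACCC letters. The promoters of Hbb-y and Hba-x are from RefSeq on GRCm38.p6, and that of Hbb-bh1 is not analysed here. Each run below is 5′ to 3′ on the strand of its gene and ends at the last base before the start of transcription. It spans 250 bases for Hbb-y (chr7:103853208-103853457, minus strand) and Hba-x (chr11:32276350-32276599, plus strand), and 150 bases for the adult genes Hbb-bs (chr7:103827929-103828078, minus strand), Hbb-bt (chr7:103813924-103814073, minus strand) and Hba-a1 (chr11:32283522-32283671, plus strand). Capitals mark CACCC.
Hbb-y: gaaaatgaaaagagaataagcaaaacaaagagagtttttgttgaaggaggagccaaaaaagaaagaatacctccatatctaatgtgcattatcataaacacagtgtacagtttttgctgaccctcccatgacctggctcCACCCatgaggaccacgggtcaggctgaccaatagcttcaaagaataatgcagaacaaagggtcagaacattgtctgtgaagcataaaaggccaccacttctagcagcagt
Hba-x: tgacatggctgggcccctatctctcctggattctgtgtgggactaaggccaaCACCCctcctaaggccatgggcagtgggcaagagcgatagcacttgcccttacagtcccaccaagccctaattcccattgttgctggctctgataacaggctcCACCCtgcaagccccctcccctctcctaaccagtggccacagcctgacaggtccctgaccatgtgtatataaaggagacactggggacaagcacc
Hbb-bs: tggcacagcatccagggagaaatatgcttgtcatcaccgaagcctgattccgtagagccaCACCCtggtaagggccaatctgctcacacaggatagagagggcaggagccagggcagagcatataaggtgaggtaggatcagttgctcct
Hbb-bt: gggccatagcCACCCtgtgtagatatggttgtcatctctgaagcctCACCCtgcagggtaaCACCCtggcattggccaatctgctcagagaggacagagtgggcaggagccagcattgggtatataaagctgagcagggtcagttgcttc
Hba-a1: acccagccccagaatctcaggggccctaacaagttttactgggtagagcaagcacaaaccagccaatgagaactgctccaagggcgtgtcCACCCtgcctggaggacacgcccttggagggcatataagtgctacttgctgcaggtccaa

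CACCC was searched on both strands over 250 bases upstream and was found 1 time for Hbb-y, starting 111 bases upstream, and 2 times for Hba-x, 198 and 95 bases upstream. It stood 1 time upstream of Hbb-bs, 3 times upstream of Hbb-bt and 2 times upstream of Hba-a1, so embryonic and adult genes alike carried it. Over all 32851 promoters of the RefSeq set, 52.0% held CACCC in the same window. The longer pattern CCNCNCCC, which the binding letters of Krüppel-like factors fit, was held by 45.9% of promoters: Hba-x had 1 match, 83 bases upstream, Hbb-bs and Hbb-bt had 1 each, and Hbb-y and Hba-a1 had 0.

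Upstream of Hbb-y the letters TGACC, part of the sites of nuclear receptors such as TR2 and TR4, occurred 5 times, starting 133, 122, 94, 86 and 51 bases upstream on either strand. At least 1 TGACC was held by 35.2% of all promoters and 5 or more by 0.0426%. The letters were chosen after the sequences were read and the cut of 5 is the count of Hbb-y, so these shares carry no test. Hba-x had 1 TGACC, 40 bases upstream, Hbb-bt had 1, and Hbb-bs and Hba-a1 had 0. The TGACC at 86 bases overlaps a CCAAT box at 83 bases (33.9% of promoters hold CCAAT), and Hba-x had no CCAAT in this window. GATAA, the core of GATA factor sites, was present 1 time in each of the 5 windows and in 22.6% of all promoters. These matches describe letters in these windows only.

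All 3 embryonic globin genes were higher on the KO arrays. In the test over genes, where the brightest probe set stands for its gene, the log2 difference was 8.24 ± 0.40 for Hbb-bh1 (SE, adjusted p = 2.63e-06 by limma), 5.81 ± 0.52 for Hbb-y (adjusted p = 4.28e-05) and 5.78 ± 0.46 for Hba-x (adjusted p = 2.45e-05). These correspond to 56.3-fold higher signals for Hbb-y and 54.8-fold for Hba-x. The WT signals of Hbb-bh1 were all under the level of the low-signal filter, and its difference corresponds to 303-fold as deposited and to 67.0-fold with the WT signals raised to that level. All 7 probe sets passed the test over probe sets, where 28.1% of the 27023 tested were called higher. On all 7, every KO array was above every WT array, which held for 37.5% of the probe sets tested. With each array centred on its hybridisation controls the differences were smaller, at 6.93 for Hbb-bh1, 4.50 for Hbb-y and 4.47 for Hba-x, and all 3 still passed.

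**Figure D1:**
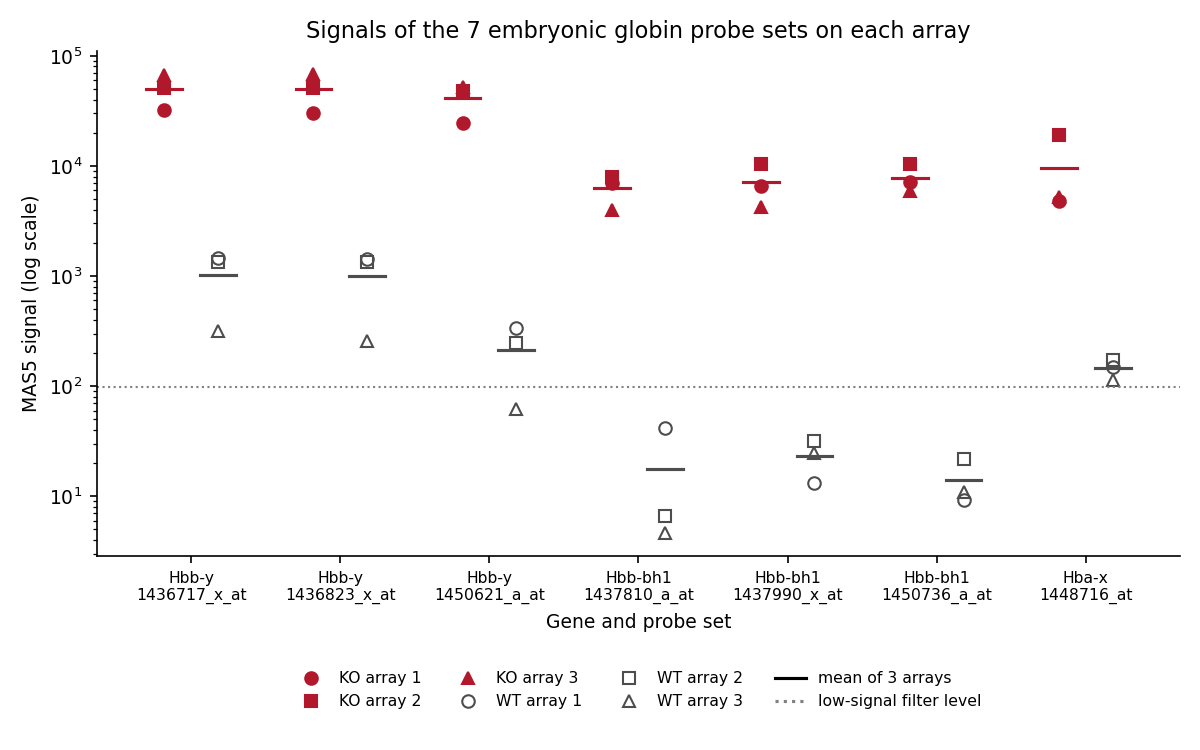
MAS5 signal (log scale) of the 7 embryonic globin probe sets on each array, with KO arrays as filled symbols left of WT arrays as open symbols. Short lines are means of 3 arrays, and the dotted line is the level of the low-signal filter, a signal of 98.6. On every probe set the 3 KO arrays lie above the 3 WT arrays, and the WT signals of Hbb-bh1 lie under the dotted line.

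Hbb-y encodes εy-globin, the main beta-like chain of primitive red cells in the later embryo. Its probe set 1436717_x_at gave signals of 32162, 50972 and 66626 on the KO arrays, against 1447, 1330 and 319 on the WT arrays. The groups lie far apart, with the lowest KO signal 22.2 times the highest WT signal. The means were 49920 ± 17256 in KO and 1032 ± 620 in WT (SD, n = 3 each). A second probe set, 1436823_x_at, gave 30409, 51302 and 68774 in KO, against 1416, 1330 and 258 in WT. It repeated the first nearly array by array, with a log2 difference of 5.92 ± 0.59 (SE, 60.5-fold, adjusted p = 0.000138).

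The remaining Hbb-y probe set, 1450621_a_at, gave 24734, 47506 and 51809 in KO, against 339, 244 and 61.5 in WT. Its KO signals were close to those of the other Hbb-y probe sets and its WT signals were lower, so its log2 difference was larger, 7.84 ± 0.56 (SE, 229-fold, adjusted p = 2.96e-05). Probe sets whose names end in x_at can share probes with related transcripts by the manufacturer's naming, and whether that raised the WT signal of the first pair was not tested. WT array 3 was the lowest WT array on all 3 probe sets, and the highest WT signal was 4.54 to 5.52 times the lowest. Without WT array 3 the log2 difference of Hbb-y over genes was 5.11.

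Hbb-bh1 encodes βh1-globin, the beta-like chain that primitive red cells make earliest. Its probe set 1437990_x_at gave 6562, 10451 and 4207 on the KO arrays, against 13.3, 31.6 and 24.7 on the WT arrays. Probe set 1450736_a_at gave 7125, 10472 and 5939 in KO, against 9.32, 21.8 and 11.0 in WT. Probe set 1437810_a_at gave 6983, 7933 and 3964 in KO, against 41.2, 6.60 and 4.62 in WT. On each probe set KO array 2 was the highest and KO array 3 the lowest, all between 3964 and 10472, while the WT signals were among the dimmest of the array, between its 4.60th and 25.7th percentile, and their order on 1437810_a_at differed from that on the other probe sets.

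The log2 differences of these 3 probe sets were 8.24 ± 0.41, 9.19 ± 0.37 and 9.13 ± 0.72 (SE, adjusted p 4.40e-06 to 4.45e-05). All 3 WT arrays were under the filter level of 98.6 on all 3 probe sets, so the gene entered the test only through its KO arrays and the size of its fold rests on dim signals. With every WT signal raised to that level the folds would still be 67.0, 77.3 and 61.2. Of 7111 probe sets with a WT mean of at most 23.2, 11 had a KO mean over 1000, and the 3 that reached 6294 were the Hbb-bh1 probe sets. The 23.2 is the highest WT mean of Hbb-bh1 itself and the 6294 its lowest KO mean. Its probe sets thus meet both by construction, and the count only describes the other probe sets. Others among the 11 belonged to Meg3, a maternally expressed non-coding RNA, Peg3, an imprinted zinc finger gene, Marco, a macrophage scavenger receptor, and Grap2, an adaptor protein.

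Hba-x encodes ζ-globin, the embryonic alpha-like chain. Its only probe set, 1448716_at, gave 4810, 18922 and 5228 on the KO arrays, against 149, 172 and 113 on the WT arrays. KO array 2 stood at 3.93 times the lowest KO array, and the WT arrays were close to each other and above the filter level. The means were 9653 ± 8030 in KO and 145 ± 30.1 in WT (SD, n = 3 each). Without KO array 2 the log2 difference was 5.14, against 5.78 with all arrays.

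Ranked by log2 difference among 12799 genes, Hbb-bh1 was in place 2, Hbb-y in place 9 and Hba-x in place 10. These places are those of the deposited signals. The size of the Hbb-bh1 difference rests on its dim WT signals, and it was 6.07 with signals under the filter level raised to that level. A difference over 5 was seen for 21 genes (0.164%). The gene in place 1 was Igfbp1, which encodes an insulin-like growth factor binding protein made by hepatocytes, at 8.40. Other genes of the first 10 were Fgb, Itih3 and Ambp, plasma protein genes of the liver, besides Marco, Meg3 and the linker histone gene H1f4. The WT signals of Igfbp1, Fgb, Itih3 and Marco were also under the filter level on every WT array.

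**Figure D2:**
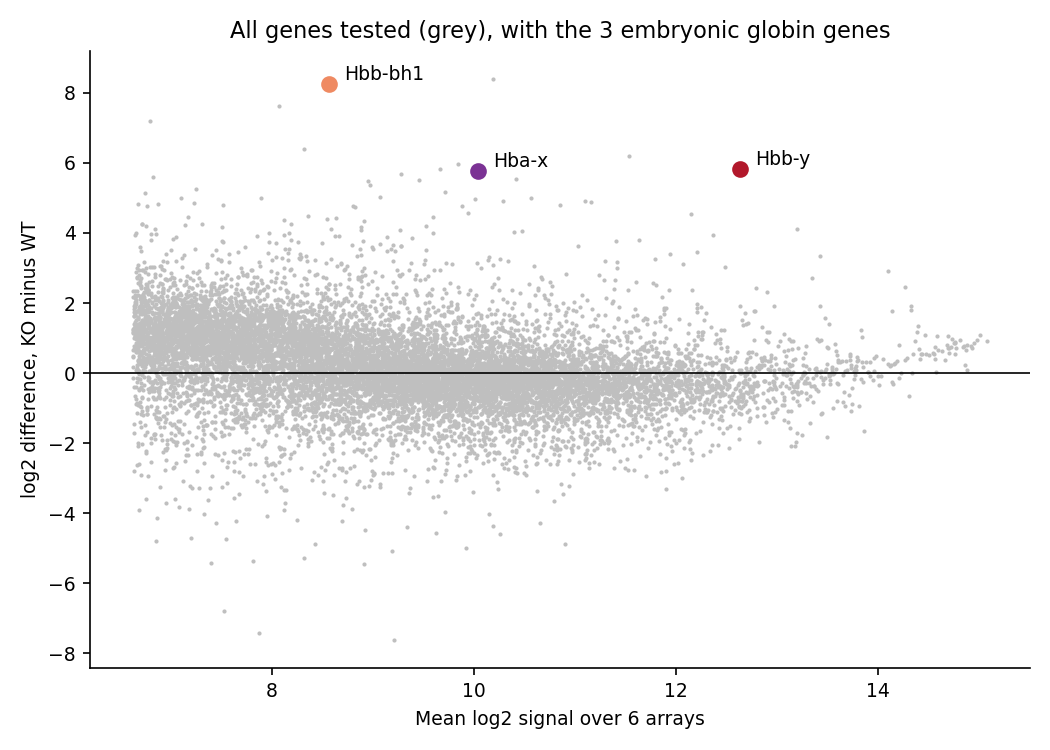
Log2 difference, KO minus WT, against mean log2 signal over the 6 arrays for every gene tested (grey points), with the 3 embryonic globin genes in colour. Hbb-bh1 at 8.24, Hbb-y at 5.81 and Hba-x at 5.78 lie at the upper edge of the cloud, at different mean signals.

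The 3 genes did not share 1 order over the KO arrays. Relative to its own KO mean, Hbb-y stood at 0.60 to 0.64 on array 1, 1.02 to 1.15 on array 2 and 1.25 to 1.37 on array 3. Hbb-bh1 stood at 0.91 to 1.11, 1.26 to 1.48 and 0.59 to 0.76 on the same arrays, and Hba-x at 0.50, 1.96 and 0.54. KO array 3 was thus the highest for Hbb-y and the lowest for Hbb-bh1. The probe sets shared by adult globin genes stood at 0.63 to 0.65, 1.04 to 1.09 and 1.28 to 1.32, the same order as Hbb-y. The mean signal of the 18 hybridisation controls had that order too, at 7038, 14120 and 17973 on the KO arrays, against 5267, 5287 and 5104 on the WT arrays, and its part in the order of Hbb-y was not tested.

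**Figure D3:**
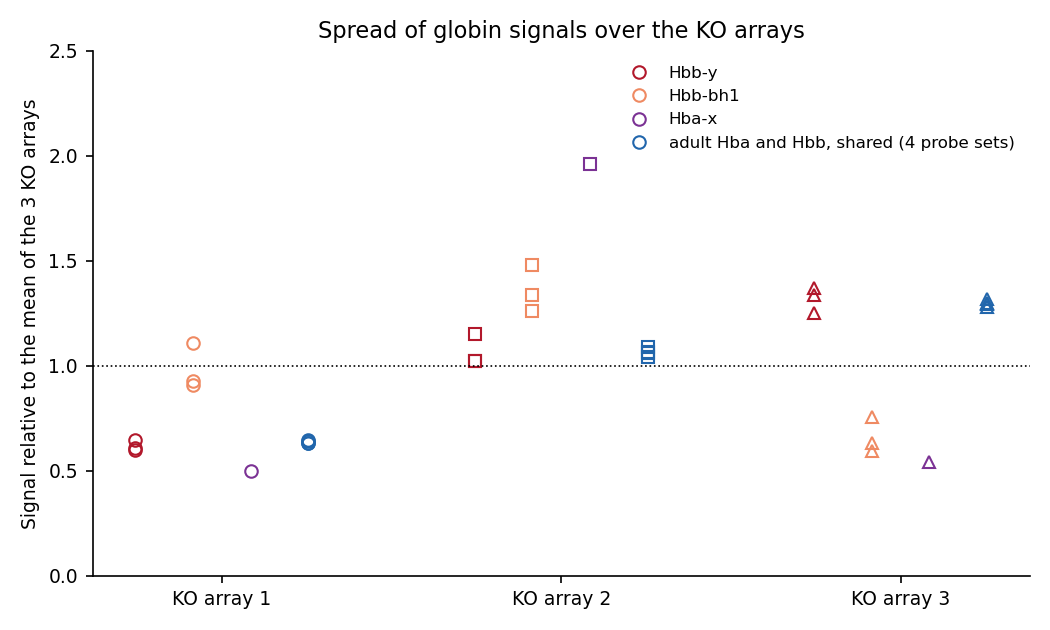
Signal of each globin probe set on KO arrays 1, 2 and 3, divided by the mean of that probe set over the 3 KO arrays (dotted line, 1). Hbb-y and the shared adult globin probe sets are low on array 1 and high on array 3, Hbb-bh1 and Hba-x are highest on array 2.

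Adult globin probe sets were higher on KO arrays in the deposited signals, by less, and their direction depended on the scaling. Of the 8 probe sets that list only adult globin genes, 6 passed as higher, where 28.1% of all probe sets did. After cyclic loess 6 of the 8 differences were above 0 and 5 passed as higher, and after quantile normalization 6 and 3. The counts were 5 and 2 after median centring, and 2 and 1 after centring on the hybridisation controls. Over all probe sets tested, cyclic loess called 4267 of 27023 as higher and quantile normalization 4183 of 27022. Median centring called 2101 of 27023 as higher and centring on the hybridisation controls 462. None of the 8 passed as lower in any of these scalings. The differences that follow are of the deposited signals. The probe set 1417184_s_at, which lists the adult beta-globin genes Hbb-bt, Hbb-bs, Hbb-b1 and Hbb-b2 together, gave 30416, 49434 and 62405 in KO, against 20158, 23559 and 21504 in WT (log2 difference 1.07 ± 0.25, SE, adjusted p = 0.00999). The adult alpha-globin probe sets that list Hba-a1 and Hba-a2 disagreed among themselves. Of these, 1428361_x_at gave a log2 difference of 0.95 ± 0.25 and 1452757_s_at 0.87 ± 0.26. The third, 1417714_x_at, gave 3.95 ± 0.25, with 38257, 64359 and 78348 in KO, against 4056, 3430 and 3795 in WT. On WT arrays 1417184_s_at, 1428361_x_at and 1452757_s_at stood at 58.1 to 84.2% of the array's brightest signal, and 1417714_x_at at 11.4 to 14.8%. Whether such bright signals had room to rise was not tested. Hbb-b2 had 2 probe sets of its own, 1427866_x_at at 2.30 ± 0.19 and 1427865_at at 0.62 ± 0.22. Names ending in x_at can mean probes shared with related transcripts. Whether that raised the signals of 1417714_x_at, 1427866_x_at or 1428361_x_at was not tested. The single-gene probe sets of Hba-a1 (0.75 ± 0.36, adjusted p = 0.121) and Hba-a2 (0.56 ± 0.33, adjusted p = 0.184) did not pass. After centring on the hybridisation controls 1417184_s_at stood at -0.24 and 1417714_x_at at 2.63, and Hbb-b2 no longer passed (adjusted p = 0.17).

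**Figure D4:**
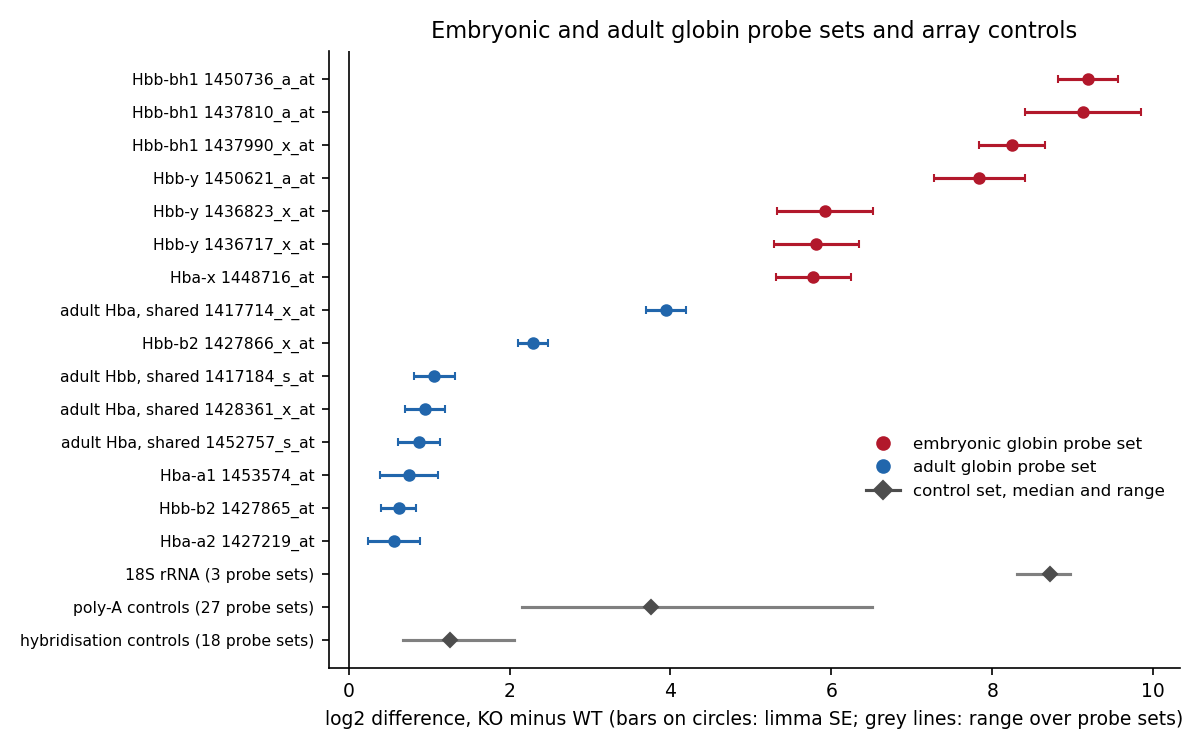
Log2 difference, KO minus WT, of the 7 embryonic (red) and 8 adult (blue) globin probe sets, with bars for the limma SE. Grey diamonds and lines give the median and range of 3 kinds of array controls. In the deposited signals the embryonic probe sets run from 5.78 to 9.19 and the adult ones from 0.56 to 3.95 (6 of the adult ones are below 0 after centring on the hybridisation controls), with the 18S ribosomal RNA controls among the highest values.

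The embryonic globins were set against the adult globins within each array, as the mean log2 signal of the 7 embryonic probe sets minus that of the 8 adult probe sets. This difference was 1.82, 2.20 and 1.43 on the KO arrays, against -3.63, -3.88 and -5.14 on the WT arrays. Every KO array was above every WT array, and the shift between the groups was 6.03 ± 0.52 (SE), or 65.4-fold. It was 4.84 with signals under the filter level raised to that level and 4.87 with an offset of 64 added to each signal. Each array's own scaling cancels in this measure. The shared adult probe sets other than 1417714_x_at stood at 58.1 to 84.2% of the brightest signal on WT arrays. On KO arrays the Hbb-y probe sets stood at 64.7 to 87.8%. The part of such bright signals in the shift was not tested. By an exact permutation test (two-sided) over the 6 arrays p was 0.1, the smallest that 3 against 3 arrays can give, and 0.133 after adjustment over the 4 such comparisons made. Because probe sets bind their targets unequally, the level of the difference on 1 array does not give a ratio of embryonic to adult globin RNA. A change in the share of cells that express a globin and a change in its RNA per cell cannot be told apart in such samples.

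Between the embryonic genes, the difference of Hbb-bh1 was the larger as deposited: the log2 signal of Hbb-bh1 minus that of Hbb-y was -2.07, -2.39 and -3.74 on KO arrays, against -5.68, -5.51 and -3.99 on WT arrays, a shift of 2.33 ± 0.74 (SE, exact permutation p = 0.1, adjusted 0.133). That shift rested on the dim WT signals of Hbb-bh1, since it was -0.36 with signals under the filter level raised to that level. Hbb-bh1 over Hba-x shifted by 3.08 ± 0.44 (p = 0.1 by the same exact test, adjusted 0.133) and by 0.31 with the raised signals. Hba-x over Hbb-y shifted by -0.75 ± 0.86 (exact p = 0.4, adjusted 0.4), less than its error. The order of the 3 genes by the size of their increase was thus not settled.

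Of the other members of the globin family, Hbb-bh2 and the theta-like genes Hbq1a and Hbq1b were not analysed here. Neuroglobin (Ngb) had a log2 difference of 0.99 ± 0.74 and did not pass (adjusted p = 0.286). Myoglobin (Mb), cytoglobin (Cygb) and androglobin (Adgb) were under the filter. Cygb gave 140, 171 and 147 on KO arrays, against 29.2, 30.6 and 21.7 on WT arrays.

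Regulators of haemoglobin switching moved in both directions, and more of them were lower. Of 27 tested, 5 were higher, 15 lower and 7 did not pass, where 27.9% of all genes were higher and 20.8% lower, with a median log2 difference of -0.60 beside 0.14 over all genes. Bcl11a, a repressor of embryonic beta-like globin genes in definitive cells, gave 905, 747 and 739 in KO, against 1747, 1292 and 1634 in WT. Its groups did not overlap and it fell by 0.96 ± 0.18 on the log2 scale (SE, adjusted p = 0.00262), with its 4 other probe sets between -1.99 and -0.70. Myb, a transcription factor of immature blood cells that represses human gamma-globin, fell by 2.05 (adjusted p = 2.25e-05). Ikzf1, which encodes Ikaros, fell by 1.36, although its other probe set gave 0.25.

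Klf2, which in mice is needed for full εy- and βh1-globin expression in primitive red cells, gave 224, 265 and 176 in KO, against 567, 579 and 3094 in WT. WT array 3 stood far above the other arrays, and Klf2 fell by 2.20 ± 0.57 with it and by 1.39 without it. Lin28a, an RNA-binding protein that raises fetal haemoglobin in human cells, gave 94.1, 114 and 131 in KO, against 1288, 887 and 1510 in WT, and fell by 3.42 ± 0.26 (adjusted p = 2.11e-05). Lin28b was under the filter. Klf4 fell by 3.56 and Klf3, which represses many Klf1 targets, by 2.04, but the mean over the probe sets of Klf3 gave -0.34 and no call.

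Zbtb7a, which encodes the gamma-globin repressor LRF, was higher by 1.05 ± 0.21 (adjusted p = 0.00343), and Sox6, which represses εy-globin in definitive cells, by 0.91 ± 0.22 (adjusted p = 0.00812). Both calls were lost after median centring and after centring on the hybridisation controls, which gave -0.26 and -0.40, and the Sox6 call also after quantile normalization and cyclic loess. Nr2c1 and Nr2c2 encode TR2 and TR4, which bind the TGACC letters of embryonic globin promoters. Nr2c1 did not pass at -0.25 ± 0.24 (adjusted p = 0.416), and Nr2c2 fell by 0.93 ± 0.25 (adjusted p = 0.0131) while its 4 other probe sets ran between -1.90 and 0.99. The Nr2c2 call was lost in 5 of 22 alternatives: quantile normalization, cyclic loess, without KO array 2, without KO array 3, and the mean over its probe sets (-0.04). Nr2f2, the orphan receptor COUP-TFII, was higher by 2.74 ± 0.28 (adjusted p = 9.13e-05).

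The mRNA-binding proteins Igf2bp1 (1.02, adjusted p = 0.0377) and Igf2bp3 (0.51, adjusted p = 0.0351) were higher, with their calls lost in 9 and 8 of 22 alternatives. The 5 other probe sets of Igf2bp3 ran between -1.29 and -0.13. Hmga2, a chromatin protein of fetal cells, did not pass at 0.003 ± 0.38. Counts for the whole list shifted with scaling, to 3 higher and 13 lower after quantile normalization and 4 and 13 after cyclic loess. They were 1 and 20 after median centring or centring on the hybridisation controls. Over all genes, quantile normalization called 2234 of 12798 higher and 2727 lower, and cyclic loess 2292 and 2658 of 12799. Of the 12799 genes, median centring called 1085 higher and 6133 lower, and hybridisation control centring 253 and 5416.

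Of 15 tested factors that activate the globin loci, 5 were higher, 3 lower and 7 did not pass, with a median of 0.13 beside 0.14 over all genes. These shares are near those of all genes (27.9% higher and 20.8% lower). Gata1, the central activator of erythroid genes, was higher by 1.89 ± 0.18, its cofactor Zfpm1 (FOG1) by 1.87 ± 0.18 and its partner Tal1 by 1.68 ± 0.22. The calls of these 3 genes were lost after centring on the hybridisation controls, where 0 of the 15 were higher and 6 lower. That centring called 253 of all 12799 genes higher and 5416 lower. Nfe2, which binds the locus control region, did not pass at -0.44 ± 0.18 (adjusted p = 0.0734). Smarca4, the ATPase of the SWI/SNF remodelling complex, fell by 1.11 ± 0.16.

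Genes other than globins that were listed as primitive or definitive erythroid genes did not move as 1 block. Of 4 primitive genes, 2 were higher and 2 lower, where 27.9% of all genes were higher and 20.8% lower. Aqp3, an aquaporin of primitive erythroid cells, gave 600, 434 and 616 in KO, against 140, 152 and 198 in WT (log2 difference 1.75 ± 0.26, adjusted p = 0.000684), and after centring on the hybridisation controls it stood at 0.44 and did not pass (adjusted p = 0.566). Aqp8, another such aquaporin, was higher by 1.40, a call lost under 4 other scalings. Klf2 was lower. Gata2, also counted among the early erythroid progenitor markers above, fell by 0.43 (adjusted p = 0.0414). Cyclic loess, quantile normalization, the replicate block and 6 more of the 22 alternatives did not give that Gata2 call. Of 6 definitive genes, 4 were lower and 2 higher, beside the same shares of all genes. Aqp1, the water channel of definitive red cells, gave 348, 422 and 512 in KO, against 761, 868 and 2024 in WT, and fell by 1.38 ± 0.35 (adjusted p = 0.0101). Car1, a carbonic anhydrase of definitive erythroid cells, was higher, by 3.07 ± 0.18. Bcl11a, Myb and Sox6, given above, and Kit complete the list.

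The genes that neighbour the embryonic globins gave a mixed picture. Around Hba-x, 9 of the 20 nearest RefSeq genes (10 on each side) were tested: 4 were higher, 1 lower and 4 did not pass, where 27.9% of all genes were higher and 20.8% lower. Upstream of it, Nprl3, whose introns hold the enhancers of the alpha-globin cluster, gave 1091, 1112 and 808 in KO, against 299.9, 539 and 393 in WT (1.32 ± 0.25, adjusted p = 0.00263). Mpg, a DNA glycosylase, was higher by 1.08, Rhbdf1, a rhomboid-like protein, by 2.75 ± 0.23 and Snrnp25, a spliceosome protein, by 0.75. The calls of Nprl3 and Mpg were lost after median centring and centring on the hybridisation controls, where Mpg stood at -0.23. Downstream of the adult alpha-globins, Sh3pxd2b (-0.13) and Ubtd2 (-0.06) did not pass, and Stk10, a kinase of lymphoid cells, fell by 3.50.

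Around Hbb-y, 4 of the 20 nearest genes were tested. Hbb-bh1 lies next to it and was higher, and the olfactory receptor genes Olfr65, Olfr64 and Olfr66 gave 1.03 (adjusted p = 0.0176), 0.69 (0.419) and 0.11 (0.831), all at signals under 350. Adult genes Hbb-bs and Hbb-bt have only the shared probe set given above.

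**Figure D5:**
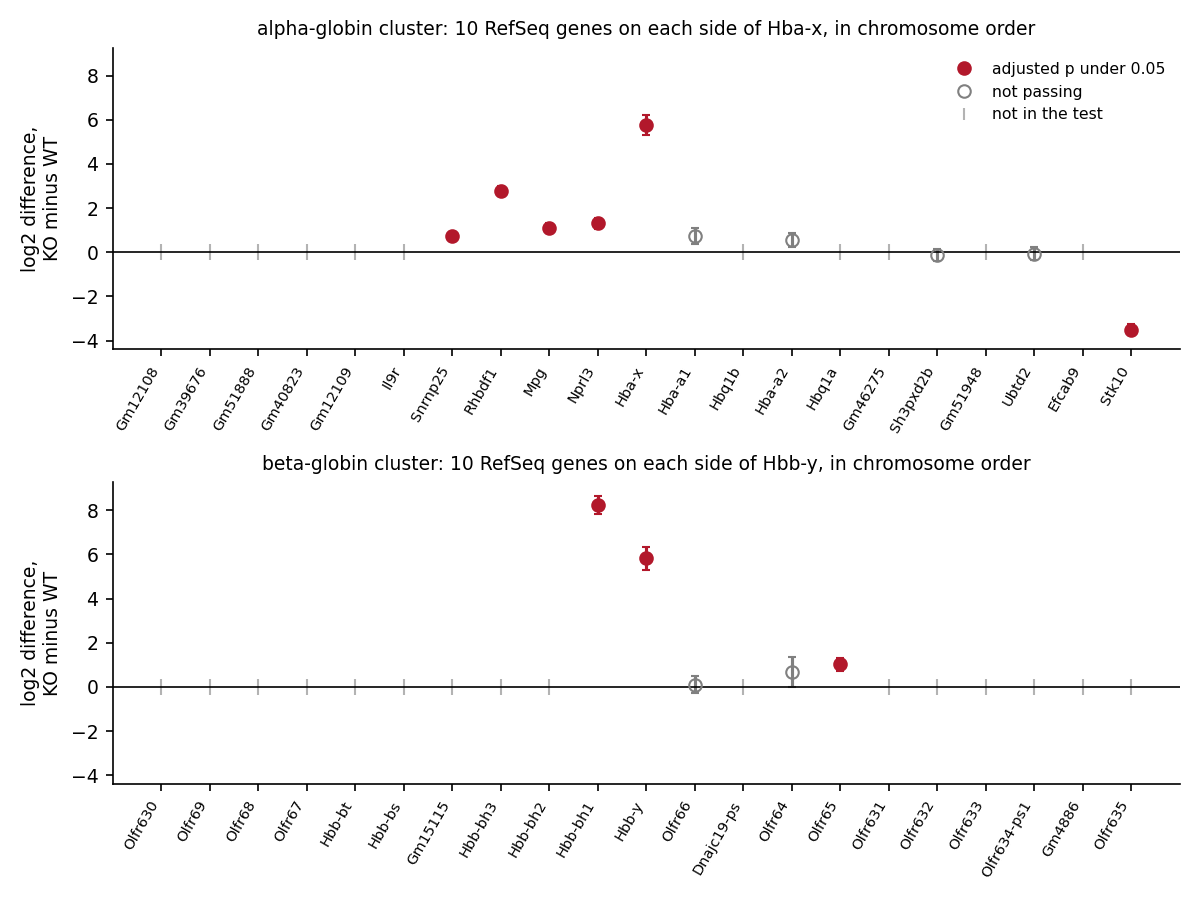
Log2 difference, KO minus WT, of Hba-x and Hbb-y and the 10 RefSeq genes on each side, in chromosome order, with bars for the limma SE. Filled points passed an adjusted p of 0.05, open points did not, and ticks mark genes not in the test. The embryonic globins stand above every other tested gene of both panels.

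The genes whose profile over the 6 arrays was most like each embryonic globin were found by the Euclidean distance between log2 profiles, each minus its own mean. For Hbb-y these were Plagl1, Ryk, Meg3, Itih2 and Slc2a2, at distances of 1.78 to 1.92. For Hba-x they were H1f4, Meg3, Ryk, Plagl1 and Maged1, at 1.58 to 1.95, and for Hbb-bh1 they were Igfbp1, Marco, Itih3, Meg3 and H1f4, at 2.17 to 3.27. Pearson r over the 6 arrays was 0.966 to 0.992 for these 15 pairs, which describes 2 groups of 3 arrays and carries no test. By distance the embryonic globins were no closer to each other than to these genes, which were picked as the nearest. Hbb-y and Hba-x lay 2.08 apart, Hbb-bh1 and Hba-x 3.31, and Hbb-y and Hbb-bh1 3.94. By r the pairs differed. Hbb-bh1 and Hba-x stood at 0.984, above the 0.971 to 0.979 of the genes listed for Hba-x. Hbb-y stood at 0.960 with Hba-x and 0.949 with Hbb-bh1, under the r of all listed genes. Meg3 stood near all 3, with 18812, 28787 and 30072 in KO, against 265, 475 and 334 in WT.

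The embryonic globins moved with the same grouping as late erythroid genes and with markers of other cells. Of 11 tested late erythroid genes 9 were higher, where 27.9% of all genes were. After centring on the hybridisation controls 4 were higher and 1 lower, where 253 of 12799 genes were higher and 5416 lower. Alas2, which starts haem synthesis in red cells, was higher by 3.93 ± 0.20. The summed signal of the late list was 93984 to 138340 on KO arrays and 21898 to 23869 on WT arrays. The summed hepatocyte signal was 145820, 147780 and 226150 in KO, against 13020, 13035 and 16246 in WT, with Alb, serum albumin, at 29091, 39817 and 51414 in KO, against 2205, 2152 and 2459 in WT. Of 10 tested megakaryocyte markers 8 were higher, and of 9 tested macrophage markers 6 were higher and 1 was lower. After centring on the hybridisation controls 1 of the megakaryocyte markers was higher, and 3 of the macrophage markers were higher and 2 lower. The summed lymphoid signal was 1434 to 2004 in KO and 26038 to 39243 in WT. Over the KO arrays the hepatocyte sum was highest on array 3, where Hbb-y was highest and Hbb-bh1 lowest, and the part of cell makeup in the globin values was not tested.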

How the data were processed

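The authors deposited 1 linear signal intensity per probe set and array. It was computed by MAS5 in Affymetrix software (Expression Console is named), per the submitters' processing notes, which name no version. Each array's mean without the top and bottom 2% was 500. Detection calls were not used here, so dimness was judged from the signal alone. Of 45101 probe sets, 34958 list 1 gene, 932 several, and 9211 were not listed. Symbols were updated to RefSeq (34754 probe sets matched), and the 64 controls were not tested.

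Signals under 1 were set to 1 (303 values) before log2. Features under the 40th percentile of mean log2 signal (6.62, a signal of 98.6) were left out. The test was limma 3.58.1 under R 4.3.3 (trended eBayes, two-sided, Benjamini-Hochberg over all features), once with 1 probe set per gene and once over probe sets. The fit with 1 probe set per gene was tested on simulated data. Every adjusted p of a gene or probe set is limma's. Shifts used exact permutation tests (SciPy 1.17.1, Python 3.11.15), and figures matplotlib 3.10.9. A symbol stands for a gene only where its probe set lists 1 gene.

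Members, gene lists, motifs and neighbours were chosen with earlier results of these data known, and the motifs after the sequences were read. Named genes are the members, listed switching, activator and erythroid genes, up to 3 further genes per list with the smallest p, the 10 neighbours on each side and the 5 most alike genes. Peg3, Grap2, Fgb, Itih3, Ambp, Cd34 and the control probe sets fall outside that rule and were added after their values were seen. Same-numbered KO and WT arrays showed little shared deviation (correlations of 0.040, 0.026 and 0.060), and the main fit left them unpaired. These correlations alone cannot exclude a pairing of the samples. The labels call the RNA samples independent, and p-values measure the spread between these arrays. Alternatives were other scalings, offsets, filters, variance models, probe set choices, a replicate block and leaving out each array. Centring on hybridisation controls was added after seeing the data.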

Additional observations from a re-analysis of the deposited data

How the results depend on the processing

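The log2 differences of the 3 genes stayed above 0 and past the threshold in all 22 alternatives each, and 7 of 7 probe sets passed in all 20. Hbb-y ran from 4.50 (hybridisation control centring) to 7.84 (its dimmest probe set), Hbb-bh1 from 6.07 (signals raised to the filter level) to 9.13, and Hba-x from 4.47 (hybridisation control centring) to 6.13. Leaving out 1 array gave 5.11 to 6.20, 7.89 to 8.57 and 5.14 to 6.13. A replicate block left the 3 differences at 5.81, 8.24 and 5.78 with 6277 genes called against 6232, and it changed no call of these genes. Only the shift of Hbb-bh1 over Hbb-y turned its sign, to -0.36 with signals under the filter level raised to it, and it was 0.13 with an offset of 64. The cause is the dim WT signal of Hbb-bh1, which that setting replaces. Without 1 array the embryonic over adult shift was 5.57 to 6.32, Hbb-bh1 over Hbb-y 2.00 to 2.87, Hbb-bh1 over Hba-x 2.71 to 3.46 and Hba-x over Hbb-y -1.31 to -0.16. Among the genes called in either direction, the share called higher moved with scaling. It was 57.3% as deposited, 45.0% after quantile normalization, 46.3% after cyclic loess, 15.0% after median centring and 4.46% after centring on hybridisation controls. The median difference of all genes was 0.14, -0.02, 0.00, -0.68 and -1.17 in the same order, and the 3 embryonic genes stayed above it in each. Detection of the WT signal of Hbb-bh1 was limited by brightness, with all 3 WT arrays under a signal of 98.6.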
